A study of Arabidopsis thaliana with 8 samples.

Results

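The plasma membrane intrinsic proteins (PIPs) are the aquaporins of the plant plasma membrane. The 10 PIP genes described here were listed by their gene identifiers, and are 10 of the 23632 genes in the table of normalized read counts. The rule itself uses no measured value, but the list was chosen with earlier results of these data known. They are the 5 PIP1 genes, PIP1-1 (AT3G61430), PIP1-2 (AT2G45960), PIP1-3 (AT1G01620), PIP1-4 (AT4G00430) and PIP1-5 (AT4G23400), and 5 PIP2 genes, PIP2-1 (AT3G53420), PIP2-2 (AT2G37170), PIP2-3 (AT2G37180), PIP2-4 (AT5G60660) and PIP2-7 (AT4G35100). The names carry a hyphen, as in the gene list of the study, so that PIP1-1 is the gene that is also printed as PIP1;1. All 10 had reads in all 8 libraries, from 207 reads (PIP1-5) to 27066 reads (PIP1-2).

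RNA-seq was performed on 1 mm primary root tips of Arabidopsis thaliana Col-0, the wild-type accession, with 4 libraries per temperature. Seedlings were 5 days old when the treatment began and then spent 48 h at 22 °C (control) or at 30 °C (high temperature), a long-term mild heat. According to the methods 50 seedlings from 5 plates were pooled for a replicate and 3 such pools were used, whereas 4 are labelled per temperature and all 4 are included here. The labels call them biological replicates, and the p-values below measure the spread between these libraries.

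Aquaporins are membrane channels that assemble as tetramers, each subunit with its own pore, and PIPs carry much of the water that crosses root cells through their plasma membranes. PIP2 proteins reach the plasma membrane by themselves, whereas PIP1 proteins are often held inside the cell until they assemble with a PIP2 partner. Some PIPs also carry hydrogen peroxide or carbon dioxide.

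In the reference annotation (TAIR10.1) every one of the 10 genes has 4 exons, codes for 280 to 291 amino acids and overlaps no other gene. Protein identity, computed by translating the first annotated coding sequence of each gene, was 90.9% to 97.2% among the PIP1 proteins, 74.5% to 96.8% among the PIP2 proteins and 63.0% to 68.7% between the subfamilies. Both pore loops of an aquaporin carry the residues asparagine, proline and alanine (NPA), and each of the 10 coding sequences held both NPA boxes. The first box is shown with 9 bases on each side, because it shows how alike the copies are in the pore and which copies reads could fail to separate. Capitals mark the 3 NPA codons, and the sequences are RefSeq's.
PIP1-1: ggacacatcAACCCAGCGgttactttt
PIP1-2: ggacacatcAACCCAGCGgttacgttc
PIP1-3: gggcacataAACCCAGCGgtgacattt
PIP1-4: ggacacatcAACCCTGCTgtaacattc
PIP1-5: ggacatattAATCCGGCGgtgactttt
PIP2-1: ggtcacattAACCCAGCGgtgacattt
PIP2-2: ggtcacataAACCCTGCGgtgacgttt
PIP2-3: ggtcacataAACCCTGCGgtgacgttt
PIP2-4: ggtcatataAATCCGGCTgtgacggtg
PIP2-7: ggtcacattAACCCAGCTgtgactttc
PIP2-2 and PIP2-3 shared all 27 bases of this stretch, and no other pair of these genes did. The genes of this pair are neighbours on chromosome 2, PIP2-2 at chr2:15613368-15615022 on the minus strand and PIP2-3 at chr2:15617635-15619155 on the plus strand, with 2612 bases and 0 annotated genes between them. Their coding sequences were 94.8% identical with a longest shared run of 242 bases, and 12.9% of the 100-base windows of the PIP2-2 transcript recurred in PIP2-3. Reads from these windows may have been split or exchanged between the pair, so the values of both are uncertain. The same exchanged reads would weigh more on PIP2-3, whose control mean was 477 normalized reads against 4227 for PIP2-2. The level and the change of PIP2-3 are therefore the less certain of the pair. For each of the other 8 genes no 100-base window recurred in any other PIP gene.

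At high temperature the PIP genes did not move as one group. One gene, PIP1-4, rose (1.91-fold), while PIP1-5, PIP2-4, PIP1-1 and PIP2-2 fell, the first 2 of these by more than 3-fold. The 2 most abundant genes, PIP1-2 and PIP2-7, were lower by less than the fold threshold (under quantile normalization neither was lower, PIP1-2 at a log2 change of -0.00 and PIP2-7 at 0.05), and PIP2-1 had overlapping groups. Thus 1 of the 10 genes was called higher, 4 lower and 5 neither by limma, where a call needed an adjusted p below 0.05 together with a log2 fold change of 0.58 or more in either direction. Of the 21739 genes tested by the same rule, 20.0% were called higher, 17.5% lower and 37.4% in either direction. Their median log2 change was 0.01, whereas that of the PIP genes was -0.45. When the libraries were rescaled to equal totals, the median of all genes moved to 0.21, 5965 genes were called higher and 2599 lower in place of 4344 and 3797, and the PIP genes gave 1 higher and 3 lower.

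**Figure D1:**
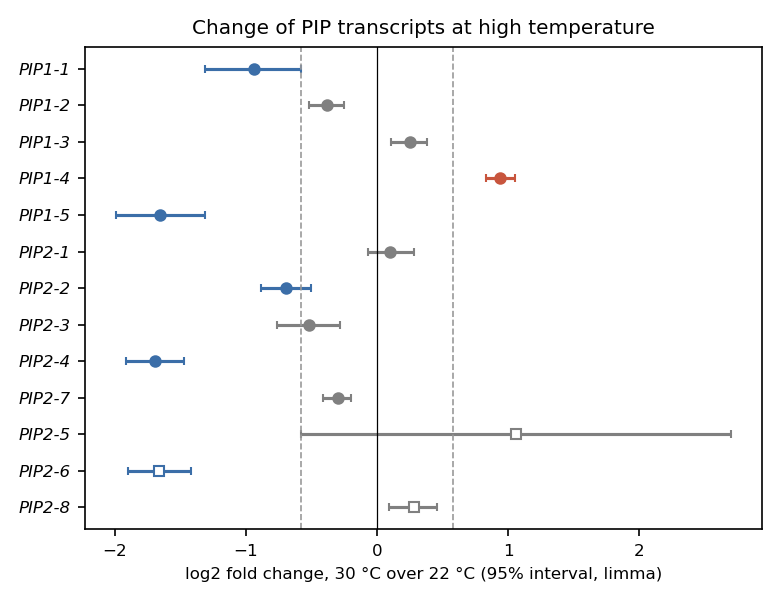
Log2 fold change (30 °C over 22 °C, 4 libraries each) of the 10 PIP genes (circles) and of the other 3 PIP genes of the genome (open squares), with 95% confidence intervals from limma, in red where called higher, in blue where called lower and in grey otherwise, with dashed lines at the fold threshold of 0.58. PIP1-4, at 0.94, is the only gene in red, and PIP1-5 and PIP2-4 are at -1.65 and -1.69. PIP2-5 lies further right, at 1.06, but its interval runs from -0.58 to 2.70 and it was not called.

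The replicate values below are normalized read counts, that is reads divided by a size factor of the library, in the order of replicates 1 to 4. The smallest p that the exact two-sided permutation test can give with 4 against 4 libraries is 0.0286 (70 arrangements), and 9 of the 10 genes reached it because their groups did not overlap. The high temperature libraries lay above the control libraries in 2 PIP genes and below them in 7, against 32.8% and 32.7% of all genes tested (65.5% in either direction). An adjusted p below 0.05 at any fold was found for the same 2 higher and 7 lower PIP genes, against 35.9% and 35.2% of all genes (71.1% in either direction). This count rested on the scaling. Rescaling to equal totals left out PIP2-7 (limma adjusted p = 0.0803) and added PIP2-1 as higher (0.00354), and quantile normalization left out PIP1-2 (0.96) and PIP2-7 (0.42) and added PIP2-1 as higher (0.0123). Because the tips were not separated by cell type, fewer cells of a type and less RNA per cell cannot be told apart in any of these values.

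Among the PIP1 genes, PIP1-4 lies at chr4:185285-187680 and encodes an aquaporin for which hydrogen peroxide transport has been described. Its normalized read counts were 4426, 4001, 4589 and 3733 in the control and 8216, 8147, 7882 and 7788 at high temperature. Every high temperature library was above every control library, and the 4 high temperature values were close to each other. The mean rose from 4187 ± 392 to 8008 ± 206 (SD, n = 4 per temperature), a log2 fold change of 0.94 (SE 0.0529, 95% confidence interval 0.83 to 1.05, limma adjusted p = 3.0e-10).

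PIP1-5 (chr4:12220641-12222468) is on the same chromosome as PIP1-4 but not beside it. In the control it had 942, 712, 899 and 613 normalized reads, and at high temperature 194, 234, 351 and 239. All 4 high temperature libraries were below the lowest control library, with replicate 3 the highest of them. The mean fell from 792 ± 155 to 255 ± 67.2 (SD, n = 4 per temperature), which was 3.11-fold lower (log2 fold change -1.65, SE 0.159, limma adjusted p = 1.6e-07).

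PIP1-1 (chr3:22733243-22735394) had 1962, 1283, 1952 and 1155 normalized reads in the control libraries and 745, 621, 1080 and 828 at high temperature. The groups did not overlap, but the gap was small, since control replicate 4 and high temperature replicate 3 lay close to each other, and the control libraries fell into a high pair (replicates 1 and 3) and a low pair (replicates 2 and 4). The mean fell from 1588 ± 429 to 818 ± 194 (SD, n = 4 per temperature). This was a log2 fold change of -0.94 (SE 0.171, limma adjusted p = 1.4e-04), as large as that of PIP1-4 in the other direction but with a confidence interval from -1.31 to -0.58.

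PIP1-2 (chr2:18910081-18911982), a main water channel of Arabidopsis roots and leaves, had 27978, 25230, 26533 and 21313 normalized reads in the control libraries and 20047, 18713, 19684 and 18675 at high temperature. The high temperature libraries all lay below the control libraries. The log2 fold change of -0.38 (SE 0.063, limma adjusted p = 5.4e-05) passed the p threshold but not the fold threshold, and it was -0.18 after rescaling to equal totals and -0.00 after quantile normalization (limma adjusted p = 0.96).

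PIP1-3 (chr1:225665-227543) had 8746, 7393, 8109 and 6611 normalized reads in the control libraries and 9473, 8761, 9110 and 9078 at high temperature. The lowest high temperature library was just above the highest control library. Its log2 fold change of 0.25 (SE 0.0635, limma adjusted p = 0.00271) was below the fold threshold, and it was 0.45 after rescaling to equal totals and 0.51 after quantile normalization, also below it.

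**Figure D2:**
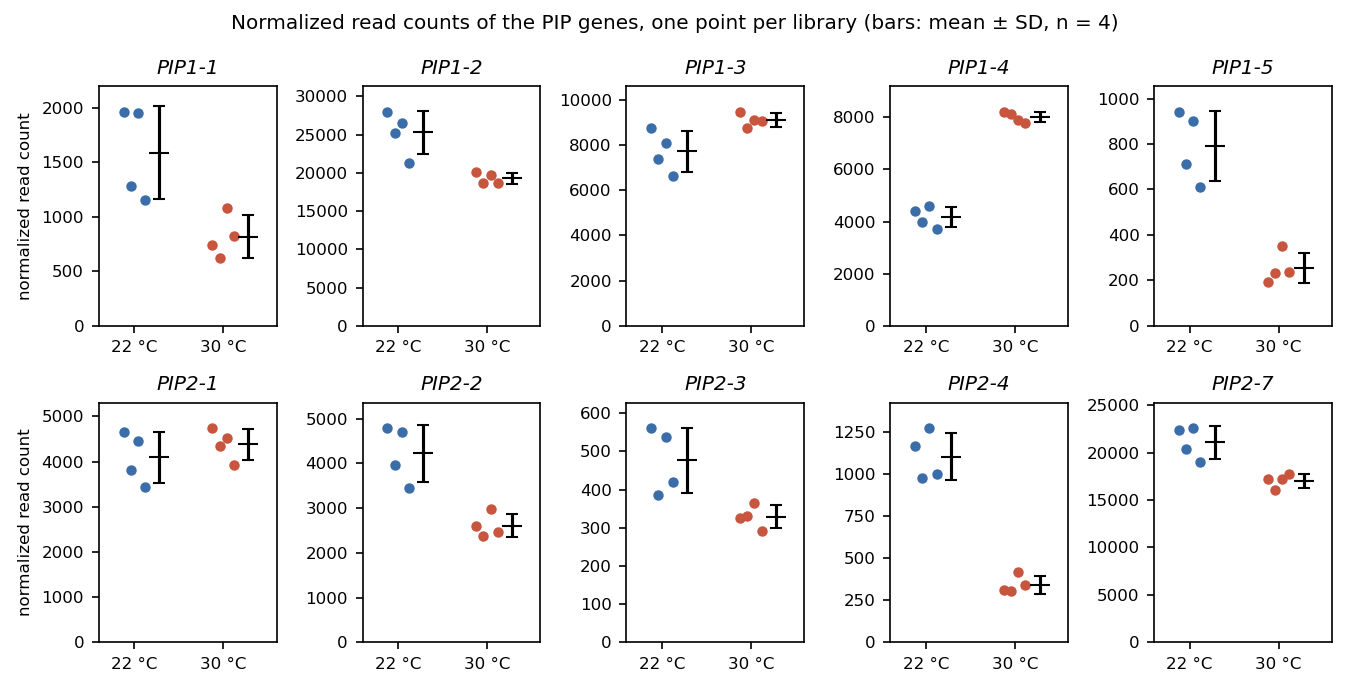
Normalized read counts (vertical axis, from 0, its own scale for each gene) of the 10 PIP genes in each library at 22 °C (blue) and 30 °C (red), with mean ± SD over 4 libraries in black. Only in PIP2-1 do the temperatures overlap, and PIP1-4 has its high temperature libraries between 7788 and 8216 against 3733 to 4589 in the control.

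Among the PIP2 genes the largest fall was that of PIP2-4 (chr5:24375368-24377206), an aquaporin gene expressed mainly in roots. Its normalized read counts were 1162, 974, 1270 and 1001 in the control and 312, 302, 419 and 338 at high temperature. The highest high temperature library had fewer reads than the lowest control library by a wide margin. The mean fell from 1102 ± 139 to 343 ± 53.2 (SD, n = 4 per temperature), 3.21-fold lower (log2 fold change -1.69, SE 0.103, limma adjusted p = 7.6e-10).

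PIP2-2, which is known to contribute to osmotic water flow in roots, had 4787, 3960, 4706 and 3454 normalized reads in the control libraries and 2595, 2389, 2983 and 2468 at high temperature. The groups did not overlap. The mean fell from 4227 ± 635 to 2609 ± 263 (SD, n = 4 per temperature), with a log2 fold change of -0.69 (SE 0.0893, limma adjusted p = 4.6e-06). It was close to the fold threshold: the log2 fold change was -0.49 after rescaling to equal totals and -0.56 after quantile normalization, and the gene was then not called.

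Its neighbour PIP2-3, also known as RD28 for its induction by desiccation, had 561, 387, 539 and 419 normalized reads in the control libraries and 327, 332, 365 and 291 at high temperature. The groups did not overlap, but control replicate 2 was just above high temperature replicate 3. The log2 fold change of -0.52 (SE 0.114, limma adjusted p = 7.7e-04) missed the fold threshold with all libraries. Without control replicate 2 it was -0.61, and PIP2-3 was then called lower too.

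PIP2-7 (chr4:16708361-16710407), among the most abundant plant aquaporin transcripts and known to decrease under salt stress, had 22366, 20394, 22560 and 18972 normalized reads in the control libraries and 17210, 16005, 17196 and 17702 at high temperature. All high temperature libraries lay below the control libraries. The log2 fold change of -0.30 (SE 0.0507, limma adjusted p = 6.1e-05) did not reach the fold threshold, and its direction was not kept under quantile normalization, which gave 0.05 (limma adjusted p = 0.42).

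PIP2-1 (chr3:19803473-19805730), a well-studied water channel of roots and guard cells, had 4664, 3824, 4464 and 3428 normalized reads in the control libraries and 4739, 4338, 4516 and 3929 at high temperature. These values overlapped throughout. The log2 fold change was 0.10, with a 95% confidence interval from -0.07 to 0.28 (limma adjusted p = 0.255, and p = 0.429 by the exact permutation test), so that a change of the size seen in PIP1-4 or PIP2-2 lay outside the interval. After rescaling to equal totals the log2 fold change was 0.31 (limma adjusted p = 0.00354).

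The other 3 PIP genes of the genome were PIP2-5, PIP2-6 and PIP2-8, of which 0 were called higher by limma, edgeR or DESeq2, also at an unadjusted p under 0.05 with the fold threshold kept. PIP2-6, known mainly from leaves, had 928, 792, 871 and 658 normalized reads in the control libraries and 247, 222, 247 and 313 at high temperature, and fell (log2 fold change -1.66, SE 0.113, limma adjusted p = 2.7e-09). The size of its change was near that of PIP1-5 and PIP2-4. PIP2-8 had a mean of 316 ± 22.9 in the control and 383 ± 34.7 at 30 °C (SD, n = 4 per temperature), a log2 fold change of 0.28 that passed the p threshold (limma adjusted p = 0.00953) but not the fold threshold. PIP2-5 had 11 reads over the control libraries and 23 over the high temperature libraries, too few to show a change at this depth.

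To compare levels between genes, FPKM values were used, which relate the fragments of a gene to the length of its transcript and in the deposited table carry the same scaling between libraries as the normalized counts. In the control, PIP1-2 (401 ± 45.4 FPKM) and PIP2-7 (333 ± 27 FPKM) were the most abundant and overlapped each other, and PIP1-3 followed at 126 ± 15 FPKM (SD, n = 4 per temperature). PIP2-2 (79.6 ± 12), PIP2-1 (65.9 ± 9.19) and PIP1-4 (53 ± 4.96) came next, each overlapping its neighbour in this order. PIP1-1 (25.8 ± 6.99), PIP2-4 (19.3 ± 2.44) and PIP1-5 (15.1 ± 2.96) also formed a chain of overlapping neighbours, and PIP2-3 was the lowest, at 9.89 ± 1.8 FPKM. The root tip pool of PIP transcripts was thus carried by few genes, with PIP1-2 and PIP2-7 together at 65.1 ± 1.1% of the summed FPKM of the 10 genes.

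At high temperature the order of the first 3 genes was the same, with PIP1-2 at 306 ± 11, PIP2-7 at 269 ± 11.4 and PIP1-3 at 149 ± 4.76 FPKM (SD, n = 4 per temperature), and none of these overlapped the next. PIP1-4 came next at 101 ± 2.61 FPKM, above PIP2-1 (70.5 ± 5.52) and PIP2-2 (49.1 ± 4.96), both of which it had been below in the control. PIP1-1 followed at 13.3 ± 3.15 FPKM, and the lowest genes, PIP2-3 (6.83 ± 0.625), PIP2-4 (6 ± 0.93) and PIP1-5 (4.85 ± 1.28), overlapped each other in this order, while PIP1-1 and PIP2-3 did not overlap. PIP1-4 held 4.71 ± 0.162% of the summed PIP level in the control and 10.4 ± 0.436% at high temperature, and the share of PIP1-2 and PIP2-7 together was 58.9 ± 0.641%.

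Summed over the 10 genes, the level was 1243, 1089, 1211 and 970 FPKM in the control and 1002, 938, 1001 and 963 FPKM at high temperature. These ranges overlapped through control replicate 4, and the ratio of the means was 0.865. The PIP1 sum was 693, 606, 660 and 524 FPKM against 593, 558, 585 and 561 FPKM, also with overlap (ratio 0.925). The PIP2 sum was 551, 483, 550 and 446 FPKM against 409, 380, 415 and 401 FPKM, with every high temperature library below every control library (ratio 0.791). Rescaled to equal totals, the ratios were 1.02 for all 10 genes, 1.09 for PIP1 and 0.934 for PIP2, so the direction of the total and of PIP1 rested on the scaling between libraries. The PIP1 share of the sum does not depend on that scaling and was 54% to 55.7% in the control and 58.3% to 59.5% at high temperature.

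**Figure D3:**
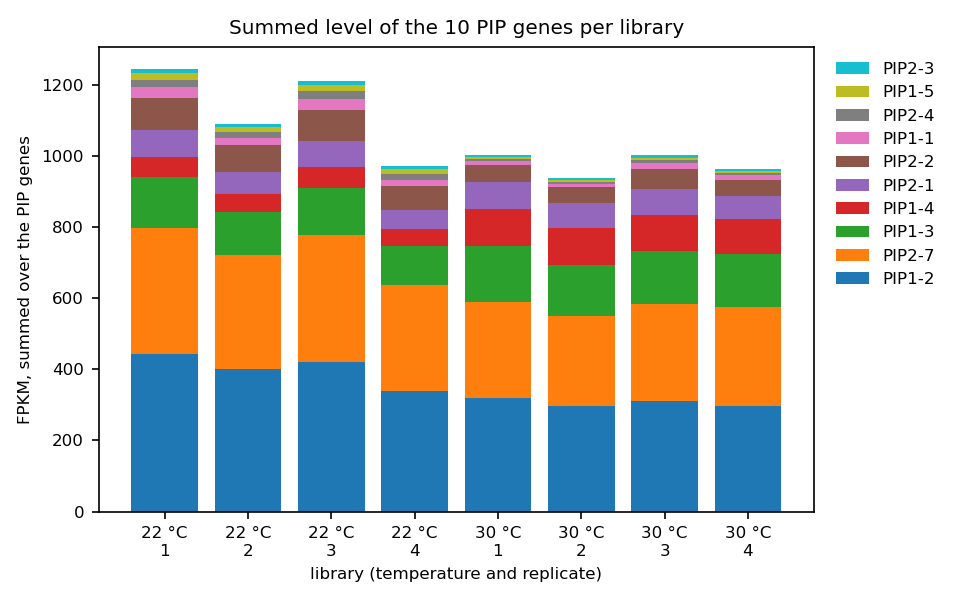
FPKM summed over the 10 PIP genes (vertical axis) in each of the 8 libraries, with 1 colour per gene. Genes are stacked upwards by falling mean over all 8 libraries, with PIP1-2 at the bottom. The bars reach 970 to 1243 FPKM at 22 °C and 938 to 1002 FPKM at 30 °C, and the PIP1-4 segment is larger in all 4 libraries at 30 °C.

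Whether close copies changed by different amounts was tested with the ratio of their FPKM values within a library, for 7 pairs in which each gene was set beside the gene of highest protein identity among the 10. PIP2-7 is closest to PIP2-8 (91.8% identical proteins), which is not among the 10, and that pair was not compared. PIP1-3 and PIP1-4, with 97.2% identical proteins, differed in their response: PIP1-3 was 2.28 to 2.55 times PIP1-4 in the control and 1.39 to 1.5 times at high temperature. This was a change of -0.69 in the log2 ratio (exact permutation p = 0.0286, 0.04 adjusted over the 7 pairs). PIP1-3 was 8.46 ± 0.726 times PIP1-5 in the control and 32.2 ± 7.99 times at 30 °C (SD, n = 4 per temperature), although their proteins were 94.8% identical (log2 change 1.90, exact permutation p = 0.0286, 0.04 adjusted). The p of the PIP1-3 and PIP1-5 pair was fixed beforehand, because PIP1-3 alone had separated the temperatures upwards and PIP1-5 downwards. It adds nothing to the results of the single genes.

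In the PIP2 group the order of PIP2-1 and PIP2-2 (93.4% identical proteins) was inverted. PIP2-1 was 0.811 to 0.849 times PIP2-2 in the control and 1.29 to 1.56 times at high temperature, a change of 0.79 in the log2 ratio (exact permutation p = 0.0286, 0.04 adjusted). The ratio of PIP2-2 to PIP2-4 (81.6% identical proteins) changed by 1.00 and that of PIP2-1 to PIP2-7 (76.3%) by 0.41 on the log2 scale, with the same p values. The proteins of both these pairs are less alike than those of the other pairs. Of the most identical copies, PIP1-1 and PIP1-2 (97.2%) had overlapping log2 ratios with a change of -0.56 (exact permutation p = 0.0857, 0.0857 adjusted). The neighbours PIP2-2 and PIP2-3 (96.8%) had ratios of 8.1 ± 0.804 and 7.2 ± 0.497 (SD, n = 4 per temperature), a log2 change of -0.17 with overlap (exact permutation p = 0.0571, 0.0667 adjusted). For these last 2 pairs a different response of the copies was not shown, and shared reads limit the PIP2-2 and PIP2-3 ratio. The pairs are not independent, because PIP1-3, PIP2-1 and PIP2-2 each stand in more than 1 of them. No share of separated ratios over other gene pairs was counted, so the number of separated pairs is a description.

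**Figure D4:**
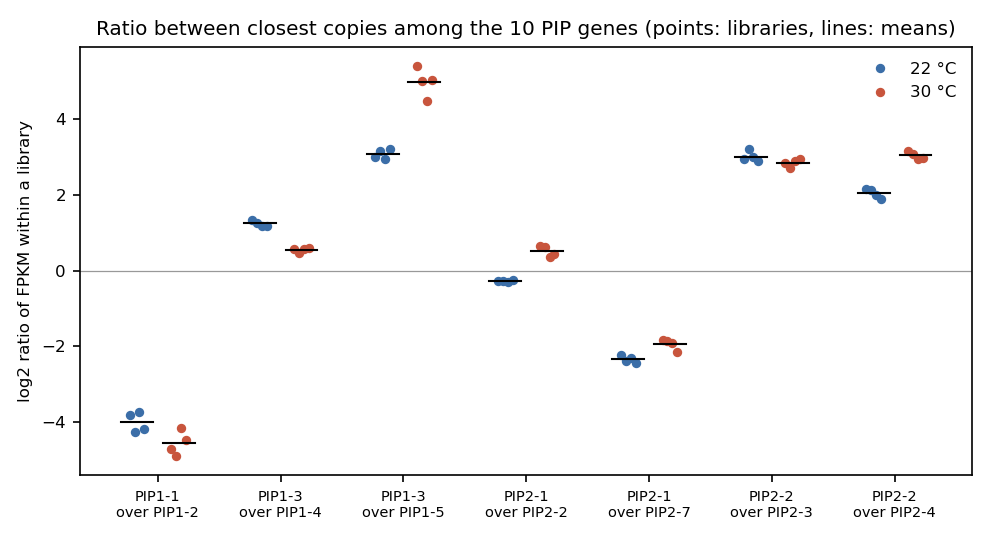
Log2 ratio of the FPKM values of both members of 7 pairs of closest copies among the 10 PIP genes within each library (points, blue for 22 °C and red for 30 °C) with group means (lines). In 5 pairs the temperatures do not overlap, and PIP2-1 over PIP2-2 crosses 0, from a mean of -0.27 to 0.52. How often the ratios of other gene pairs separate was not counted, and 65.5% of all single genes tested did.

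The 250 bases upstream of the annotated gene start were read from the TAIR10.1 genome for the gene that rose, for the genes with the largest falls and for PIP2-7, the only member with a match to GAANNTTC there. They show which of 5 letter motifs stand before genes that moved apart. Capitals mark a match to TATAAA, the letters of the core promoter box, or to GAANNTTC, the letters searched for the heat shock element, on either strand. In PIP1-5 the 2 TATAAA matches on opposite strands overlap. Whether any match is a working element was not tested.
PIP1-4 (chr4:187681-187930, minus strand): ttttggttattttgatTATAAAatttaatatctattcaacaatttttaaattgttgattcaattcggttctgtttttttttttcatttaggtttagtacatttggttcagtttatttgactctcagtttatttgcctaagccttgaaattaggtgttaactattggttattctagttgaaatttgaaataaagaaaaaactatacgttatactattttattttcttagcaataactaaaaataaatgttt
PIP1-5 (chr4:12220391-12220640, plus strand): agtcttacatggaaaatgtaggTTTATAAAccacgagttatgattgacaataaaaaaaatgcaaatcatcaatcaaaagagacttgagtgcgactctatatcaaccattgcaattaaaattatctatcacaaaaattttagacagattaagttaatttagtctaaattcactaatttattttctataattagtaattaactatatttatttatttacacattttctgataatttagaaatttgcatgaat
PIP2-4 (chr5:24377207-24377456, minus strand): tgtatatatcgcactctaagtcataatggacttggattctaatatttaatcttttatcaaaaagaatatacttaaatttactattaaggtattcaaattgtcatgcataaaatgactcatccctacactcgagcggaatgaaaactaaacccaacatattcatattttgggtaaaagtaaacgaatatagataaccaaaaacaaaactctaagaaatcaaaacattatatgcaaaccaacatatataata
PIP2-7 (chr4:16708111-16708360, plus strand): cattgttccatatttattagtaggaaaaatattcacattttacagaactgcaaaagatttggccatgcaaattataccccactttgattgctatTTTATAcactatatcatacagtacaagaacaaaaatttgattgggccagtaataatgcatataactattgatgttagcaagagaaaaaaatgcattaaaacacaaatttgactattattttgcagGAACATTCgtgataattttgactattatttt
TATAAA was in 5 of the 10 upstream windows (PIP1-2, PIP1-4, PIP1-5, PIP2-3 and PIP2-7) and in 47.3% of the windows of 27443 protein-coding genes, but no match of the 10 genes was nearer than 156 bases to the start. GAANNTTC was in PIP2-7 alone, 31 bases upstream, and in 9.55% of all windows. The dehydration-responsive core CCGAC was in PIP1-3 alone (12% of all windows). CACGTG (G-box, 6.49% of all windows) and AAAATATCT (evening element, 2.36%) were in none of the 10. The gene that rose and PIP1-5, which fell, thus held the same single kind of match, and PIP2-4 held none of the 5 motifs.

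Other aquaporins did not share 1 direction. The TIP genes code for tonoplast intrinsic proteins, the aquaporins of the vacuole membrane. Of 6 tested TIP genes (10 listed), 4 were lower and 1 was higher by limma (median log2 change -1.23), and edgeR and DESeq2 called 3 lower. Of all genes tested by limma 17.5% were called lower and 20.0% higher. TIP2-1 fell most, from 2713 ± 295 to 130 ± 73.9 normalized reads (SD, n = 4 per temperature, log2 fold change -4.61, limma adjusted p = 6.8e-09). TIP2-2 fell from 27.9 ± 14.5 to 2.37 ± 2.25 normalized reads, and TIP2-3 had only 12 and 3 reads over the libraries of the temperatures. TIP4-1 (log2 fold change -0.65) was also lower, and the gene that rose was TIP1-1, from 4144 ± 716 to 7206 ± 556 normalized reads. TIP4-1 and TIP1-1 were named after their values were seen.

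The NOD26-like intrinsic proteins (NIPs) include channels for boric acid and other small solutes. Of 9 listed NIP genes 7 were tested, 3 called higher and 2 lower (median log2 change 0.38), against 20.0% and 17.5% of all genes. The median was the value of NIP5-1, and the gene with no read at high temperature lay below it. The genes called had few reads in these tips. NIP7-1 had 18 reads over the control libraries and 0 over the high temperature libraries, NIP6-1 had 32 and 4, and NIP3-1 had 14 and 52. The other 2 called higher, NIP2-1 and NIP1-2, had 46 and 102 reads over the control libraries and 188 and 191 over the high temperature libraries, and were named after their values were seen. The small basic intrinsic proteins (SIPs) of the endoplasmic reticulum gave 0 higher and 0 lower of 3 tested by limma, and also by edgeR, by DESeq2 and at an unadjusted p under 0.05 with the fold threshold kept.

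Proteins that act on PIP aquaporins were taken as a list of 14 genes, of which 13 were tested. It holds syntaxins and a vesicle protein of PIP traffic, ubiquitin ligases, kinases that phosphorylate PIPs, and regulators of root water transport. By limma 2 were higher and 0 lower (median log2 change -0.14), against 20.0% and 17.5% of all genes tested. With the fold threshold kept, the counts at an unadjusted p under 0.05 were also 2 and 0, and by edgeR and by DESeq2 they were 3 and 0. Without it, 5 were higher and 7 lower by limma at an adjusted p below 0.05, against 35.9% and 35.2% of all genes tested (71.1% in either direction). RMA1, a ubiquitin ligase of the endoplasmic reticulum that holds back and marks PIP2-1 for degradation, rose from 102 ± 15.4 to 223 ± 9.8 normalized reads (SD, n = 4 per temperature, log2 fold change 1.14, SE 0.13, limma adjusted p = 1.1e-06). OST1, a kinase of abscisic acid signalling that phosphorylates PIP2-1 in guard cells, rose from 251 ± 36.9 to 546 ± 56.9 normalized reads (log2 fold change 1.13, SE 0.106, limma adjusted p = 1.2e-07).

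In the control the PIP genes moved together from library to library. In control replicates 1 and 3 all 10 genes were above their control mean on the log2 scale, with a median deviation of 0.19 and 0.15, and in control replicate 4 all 10 were below it, with a median of -0.23. This was not particular to the PIP genes. TIP1-1, TIP1-2, TIP2-1 and TIP4-1 were also highest in control replicates 1 and 3 and lowest in replicate 4. TIP2-2 and TIP2-3, with few reads, did not have this order, and NIP1-1 was highest in control replicate 4. The share of all genes that deviated in this way was not counted. At high temperature the PIP genes were less uniform: 5 of the 10 were above the mean in replicate 1 and 9 in replicate 3, 2 each in replicates 2 and 4, and the median deviations were between -0.07 and 0.10. Without control replicate 4 the ratio of the summed PIP level was 0.826, and without control replicate 1 it was 0.895.

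Markers of cell types differed between the temperatures and between these libraries, not all in the same order. Summed over 5 root hair genes the normalized reads were 1264, 857, 966 and 586 in the control and 28.1, 28.1, 64.8 and 51.3 at high temperature. The control sum had the same order of libraries as the summed PIP level. Most of it was COBL9 (938, 645, 720 and 395), and EXPA7, RSL4, PRP3 and EXPA18 did not have this order. All 5 root hair genes were called lower by limma, and 1 of them, EXPA18, had 0 reads at high temperature. Summed over 5 xylem genes the values were 1250, 994, 1227 and 890 against 1074, 903, 1205 and 971, so that the sums overlapped and replicates 1 and 3 were high at both temperatures. The xylem genes went both ways, with IRX3 called higher and XCP2 and VND7 lower. The phloem sum (3 genes, 2 called higher) was 211 to 290 in the control and 406 to 480 at high temperature.

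The endodermal barrier sum (8 genes, 1 called higher) was 166 to 241 in the control and 223 to 552 at high temperature, with the highest value in replicate 3. The root meristem sum (7 genes) was 9696, 10098, 9975 and 10533 in the control, the opposite order of libraries to that of the summed PIP level, and 9654, 9267, 9379 and 9332 at high temperature. PLT2 and KNOLLE had the control order of this sum, and the other meristem genes did not. SCR, for example, was highest in control replicate 3, and WOX5 was lowest in control replicate 4. Of the meristem genes PLT1 and WOX5 were called higher and KNOLLE and CYCB1-1 lower. The root cap sum (4 genes) was 3706, 3462, 3355 and 3982 in the control, also highest in replicate 4, and 4329 to 4603 at high temperature. Markers of the labelled tissue were thus present in every library. The leaf sum (4 genes, all called lower) was 160 to 188 and 11.3 to 18.4, with RBCS1A at 0 reads in all high temperature libraries. The part of these cell types in the PIP changes was not tested. No batch is named in the labels, and temperature cannot be told apart from anything else that differed between the plates of the groups.

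**Figure D5:**
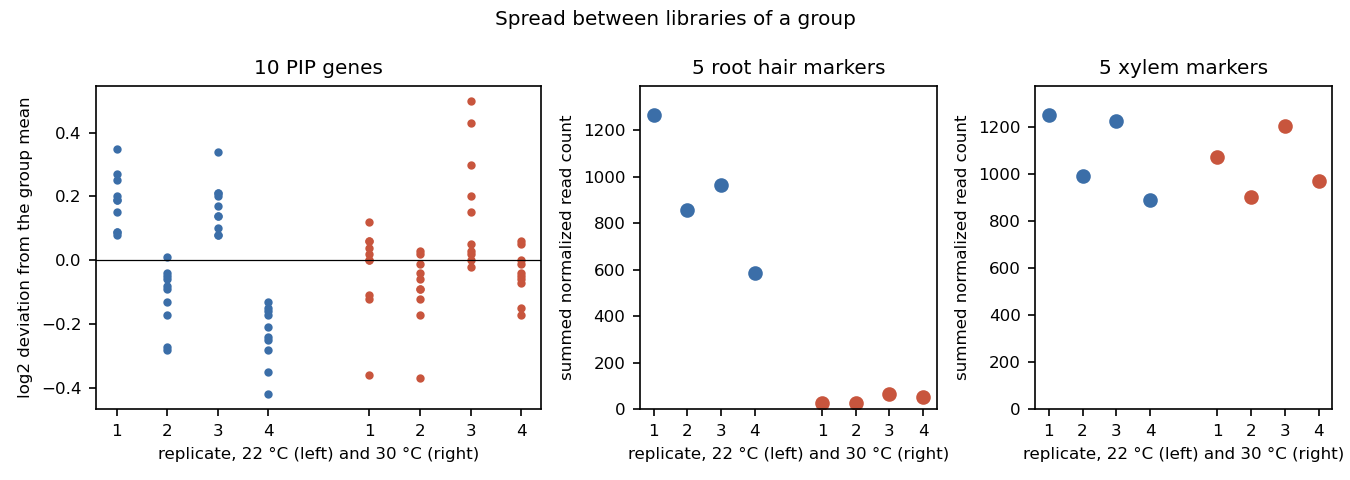
Left, log2 deviation of each of the 10 PIP genes from its group mean in each library. Middle and right, normalized reads summed over 5 root hair and 5 xylem marker genes per library, for replicates 1 to 4 at 22 °C (blue) and 30 °C (red). In control replicates 1 and 3 all PIP genes are above 0 and in replicate 4 all are below it, and the root hair sum is at most 64.8 at 30 °C against at least 586 at 22 °C.

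The genes whose level followed the summed PIP level most closely over the 8 libraries, among 15495 genes with a mean of at least 100 normalized reads, were DIR6 (AT4G23690, a dirigent protein, Pearson r = 0.962), AT2G26600 (0.961), SUE4 (AT3G55880, 0.960), AT3G24929 (0.960) and PCAP1 (AT4G20260, a cation-binding protein of the plasma membrane, 0.959). The 8 points share their libraries and fall into the temperature groups, so these values are a description. All 5 had lower means at high temperature, with log2 changes from -0.38 (SUE4) to -0.12 (AT2G26600).

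The recovered reads in genes numbered 38396646 to 40750937 per control library and 38216649 to 41833843 per high temperature library. All replicate pairs differed beyond counting noise (chi-square per gene between 3.22 and 11.16 on average). Each library was counted once, as labelled. Such spread does not by itself show that the 4 libraries of a temperature came from separate pools. The normalized values of all genes summed to 42200084 ± 178664 in the control and 36647833 ± 359090 at 30 °C (SD, n = 4 per temperature), and rescaling to equal totals raised the high temperature values accordingly.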

How the data were processed

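RNA-seq of 8 root tip libraries was analysed, 4 at 22 °C and 4 at 30 °C. The authors deposited gene-level signal values, in which the read count of a gene was divided by the size factor that DESeq2 gave its library (0.904 to 0.967 in the control and 1.033 to 1.140 at high temperature), and a table of FPKM values for 32833 genes. HISAT2 (alignment program), the TAIR10 build and DESeq2 are listed in the processing notes of the submitters, and how reads were counted, and whether by strand, is not given in the sources used here. After the step of 1 read was found in each library, 100.0% of the normalized values came out whole (tolerance 0.01).

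The 10 genes and the other gene lists were chosen with earlier results of these data known. Temperatures were compared with limma 3.58.1 (R 4.3.3, trended prior variance, no further term in the model). Its input was log2(normalized value + 0.5) for 21739 genes, those whose mean was 1 or more. A fold change is on that scale. Benjamini-Hochberg adjustment ran over all of them, and calls needed an adjusted p below 0.05 with a log2 fold change of 0.58 or more in either direction, the thresholds of the study's methods. DESeq2 1.42.0 and edgeR 4.0.16 were run on the recovered reads as alternatives, beside other pseudocounts, filters, scalings and thresholds, the FPKM table, the replicate number as a block, and leaving out each library. edgeR calls 4412 genes higher and 3636 lower on these reads, and DESeq2 4203 and 3706. Each fit was tested on simulated data. Ratios of copies were compared by exact permutation (two-sided).

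All 10 PIP genes were named, then all other PIP genes, up to 3 called members with the largest change of each other list, and the 5 genes most alike in level. Gene models, upstream windows and coding sequences came from RefSeq's TAIR10.1 genome and annotation, in which all 86 listed genes were found. Same-numbered libraries of both temperatures did not deviate together (correlations of 0.01, 0.01, 0.08 and 0.00), so the numbers were not taken to pair the samples.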

Additional observations from a re-analysis of the deposited data

Results flagged for a closer look

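Of 64 groups of 4 libraries looked at (all PIP genes, their sums, the ratios of copies and the other aquaporin and regulator genes named by the rule), 4 held a library far from the other libraries of its group by the gap criterion of Dixon, where chance flags about 1 group in 20. The log2 ratio of PIP1-3 to PIP1-4 was 0.47 in high temperature replicate 2, against 0.57 to 0.59 in the other libraries at 30 °C, and stayed below all control libraries. TIP2-2 had 49.6 normalized reads in control replicate 1, against 19.2 to 22 in the other control libraries. TIP2-3 had 6.39 normalized reads in control replicate 3 (2.07 to 2.21 in the others), and NIP3-1 had 10.3 in control replicate 1 (1.07 to 2.09 in the others), each at few reads per library. No library stood apart in this way in the values of the 10 PIP genes themselves or in their sums.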

How the results depend on the processing

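The PIP counts of 1 higher and 4 lower were also given by pseudocounts of 1 and 5, by no filter and a filter at a mean of 10, by the FPKM table, by edgeR and by DESeq2. Without a fold threshold they were 2 and 7, against 35.9% and 35.2% of all genes tested. With a log2 threshold of 1 they were 0 and 2, and the share of all genes at that threshold was not counted. Rescaling to equal totals gave 3 lower, a PIP2-2 log2 change of -0.49 and ratios of the summed level of 1.02 (PIP), 1.09 (PIP1) and 0.934 (PIP2). Quantile normalization gave -0.56 for PIP2-2, -0.68 for PIP2-3, which was then called, and 0.05 for PIP2-7, whose direction turned. Leaving out 1 library gave 4 to 5 lower PIP genes, and a PIP2-3 change between -0.61 (without control replicate 2) and -0.44.

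For the other lists, rescaling to equal totals gave 2 lower TIP genes and 5 higher PIP regulators, and quantile normalization gave 1 lower regulator. Without a fold threshold there were 5 higher NIP genes, 1 lower SIP gene, 5 higher and 7 lower regulators and 1 higher gene among the other PIP genes. At a threshold of 1 there were 0 higher TIP genes. The FPKM table gave 1 higher and 0 lower NIP genes, and a filter at a mean of 10 gave 0 lower. Leaving out 1 library gave 1 to 3 higher NIP genes (1 without high temperature replicate 1) and 0 to 1 lower regulators (1 without control replicate 1). The cause of these differences was not tested.

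With the replicate number as a block limma gave 1 higher and 4 lower PIP genes, and so did edgeR with the block, an alternative chosen after seeing the data. The block lowered the adjusted p of PIP2-1 to 0.0322 at a log2 change of 0.10, below the fold threshold. Over all genes it gave 4300 higher and 3762 lower, and the numbers did not pair the samples. It changed no call of a PIP gene and left 3 lower TIP genes in place of 4. PIP2-5 had too few reads for a change to be shown, and the calls of the NIP genes rested on few reads.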
